A study of Mus musculus with 20 samples.

Results

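Collagens, the other proteins of the extracellular matrix and the enzymes that modify collagen were followed as a set of 38 named genes, chosen by gene symbol from a table of 24795 genes. The set holds 18 collagen chain genes, 9 genes of matrix glycoproteins and proteoglycans, 3 lysyl oxidases, and 8 genes of collagen hydroxylases and their partners. RNA had been sequenced in 20 mouse libraries in 3 groups. Of these, 6 came from Apc Min mice under DM-aKG (DM-aKG libraries), 7 from Apc Min mice under a control treatment (control libraries), and 7 from wild-type animals without treatment (WT libraries). Apc Min is a truncating allele of Apc, a brake on Wnt signalling, and mice that carry it form intestinal adenomas. DM-aKG is the dimethyl ester of alpha-ketoglutarate, which enters cells more readily than the free acid. The titles of the samples speak of tissue, other label fields speak of intestinal organoids kept in organoid medium with low glutamine, and the labels leave this unresolved. Age, dose, duration and the number of animals are not given in the labels, so p-values measure the spread between libraries, which may be technical.

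Collagen chains are hydroxylated on proline and lysine in the endoplasmic reticulum before they fold into a helix, and the prolyl and lysyl hydroxylases that do this consume oxygen and alpha-ketoglutarate (2-oxoglutarate) with iron at the active site. The folded procollagen is escorted by the chaperone Serpinh1 (Hsp47), secreted, trimmed, and cross-linked by the copper enzymes of the lysyl oxidase family. In the intestine, fibrillar collagens lie in the lamina propria and the deeper layers and are made mainly by fibroblasts and smooth muscle, while type IV collagen forms the basement membranes of epithelium and vessels.

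Levels are given in RPKM, reads per kilobase of gene, scaled to the reads of the library, so that genes of different length can be set side by side. Changes compare group means of log2(RPKM + 1), a scale that shrinks the change where RPKM is low. A gene was called where the Benjamini-Hochberg adjusted p from limma, over all 12433 genes tested, was under 0.05. The depth of a library was estimated at 21.2 to 29.25 M reads. Of the 38 genes, 35 passed the filter of at least 1 RPKM in at least 6 libraries. Col5a3 was the gene that passed only through the control libraries, with 7 of 7 at 1 RPKM or more against 1 of 6 DM-aKG and 1 of 7 WT libraries. Col7a1, Col8a1 and P4ha3 did not pass. The libraries of replicates 1 to 4 held 3835.7 to 6557.9 RPKM of the ribosomal precursor Rn45s and those of replicates 5 to 7 held 1078.1 to 3620.9 RPKM. This split was drawn from the Rn45s values and each set holds all 3 groups. Values for replicates 5 to 7 rest on 2 DM-aKG, 3 control and 3 WT libraries.

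In DM-aKG against control libraries, 0 of the 35 tested genes rose, 20 fell and 15 were not called. At an unadjusted limma p under 0.05 the number that rose was also 0. Of all genes tested, 5.91% rose and 27.6% fell by the same rule. The median log2 change was -0.59 for the 35 genes and -0.14 for all genes. For 11 of the 35, every DM-aKG library lay below every control library, which held for 8.19% of all genes, and for 0 every DM-aKG library lay above, which held for 0.732% of all genes. When the libraries were rescaled by median-of-ratios factors, the median of all genes moved from -0.14 to 0.02, the calls over all genes moved from 735 higher and 3432 lower to 1532 higher and 1718 lower, and 18 of the 35 genes fell, against 13.8% of all genes. With quantile normalization, the other rescaling tried, 17 fell, against 14.9% of all genes. By role, all 6 fibrillar collagen chains fell, among them Col5a3, which passed the filter only through the control libraries. Also lower were 3 of 4 tested basement membrane, network or anchoring chains, 4 of 6 beaded-filament or fibril-associated chains, 2 of 9 glycoproteins and proteoglycans, 1 of 3 lysyl oxidases, and 4 of 7 tested hydroxylases and chaperones. In such bulk RNA, fewer cells of a type and less RNA per cell cannot be told apart.

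In control Apc Min against WT libraries, 26 of the 35 genes rose, 1 fell and 8 were not called, where 43.2% of all genes rose and 15.7% fell. The median log2 change was 0.71 for the 35 genes and 0.20 for all genes. The median-of-ratios factors were 1.05 to 1.18 in control libraries and 0.839 to 0.995 in WT libraries. Under that scaling the rises of Fn1, Tnc, Loxl1, Bgn and Plod1 did not pass (adjusted p = 0.0877, 0.184, 0.261, 0.298 and 0.0811). Quantile normalization ended those of Tnc, Loxl1, Bgn and Plod1 (adjusted p = 0.126, 0.678, 0.0914 and 0.197). For 16 of the 35, every control library lay above every WT library (20.4% of all genes), and for 0 every control library lay below (5.73% of all genes). With the mean of the smooth muscle markers as a covariate 19 genes rose, where 23.6% of all genes did, and the rises of Col3a1, Col6a1, Col6a2 and Col12a1 were among those that did not pass (adjusted p = 0.0825, 0.137, 0.148 and 0.0644). All 13 of these markers fell in control against WT libraries, so that fit cannot separate the covariate from the group. In DM-aKG Apc Min against WT libraries, 5 of the 35 genes rose, 2 fell and 28 were not called, where 21.9% of all genes rose and 17.3% fell. Every DM-aKG library lay above every WT library for 1 gene (9.36% of all genes) and below for 0 (7.79% of all genes). The 3 comparisons share libraries, so their values for a gene are not independent.

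**Figure D1:**
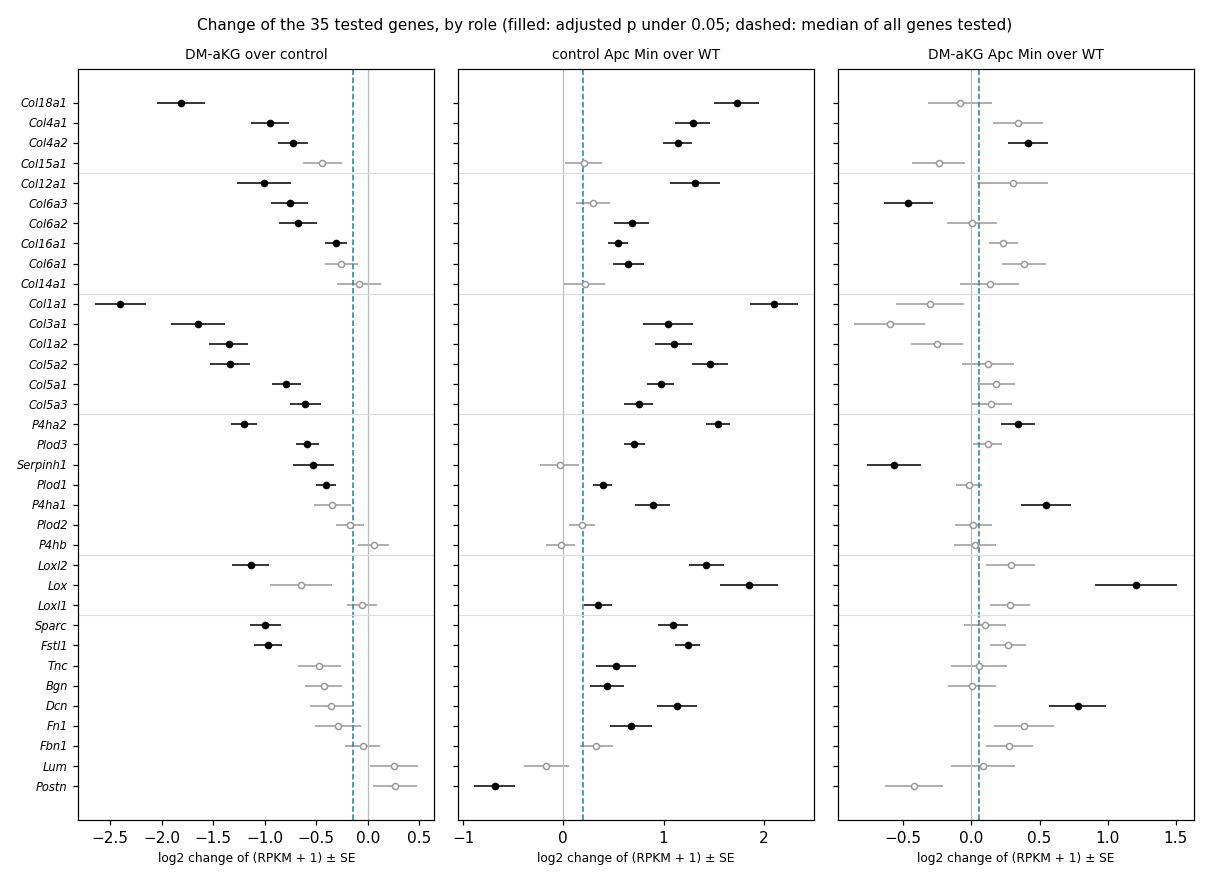
Log2 change of (RPKM + 1) with its standard error for the 35 tested matrix genes, grouped by role, in DM-aKG over control, control Apc Min over WT and DM-aKG Apc Min over WT; filled points passed an adjusted p under 0.05 and dashed lines mark the median of all genes. In the left panel 20 points are filled and all lie below 0, in the middle panel 26 are filled above 0 and 1 below, and in the right panel 5 are filled above 0 and 2 below.

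The fibrillar collagens, whose trimers form the banded fibres of connective tissue, held 4 of the 5 largest called changes in DM-aKG against control libraries. Col1a1, the alpha 1 chain of type I collagen, had 3.56, 9.54 and 17.2 RPKM as the lowest, median and highest values in DM-aKG libraries, 39.4, 54.6 and 78.8 RPKM in control libraries, and 7.35, 12.6 and 15.7 RPKM in WT libraries. Every DM-aKG library was below every control library, while the ranges of DM-aKG and WT libraries overlapped. On the log2 scale Col1a1 fell by 2.40 in DM-aKG against control (SE 0.25, adjusted p = 3.91e-07) and was 2.10 higher in control than in WT (adjusted p = 4.1e-07). Against WT the DM-aKG libraries differed by -0.30 (adjusted p = 0.337).

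Col1a2, the partner chain of type I collagen, had 6.90, 13.3 and 21.2 RPKM (lowest, median and highest) in DM-aKG libraries, 28.8, 36.8 and 43.0 RPKM in control libraries, and 11.2, 16.8 and 20.9 RPKM in WT libraries. It fell by 1.35 on the log2 scale in DM-aKG against control libraries (SE 0.19, adjusted p = 1.96e-05) with no overlap of the 2 groups, which is a smaller change than that of Col1a1. Col3a1, the chain of type III collagen, common in the pliable walls of gut and vessels, had 7.04, 18.9 and 26.4 RPKM in DM-aKG, 36.4, 53.3 and 76.3 RPKM in control and 12.3, 30.2 and 36.2 RPKM in WT libraries. It fell by 1.65 (SE 0.26, adjusted p = 7.58e-05), again without overlap. Against WT, the Col3a1 change in DM-aKG libraries was -0.60 (adjusted p = 0.0743), and it passed under median-of-ratios scaling (adjusted p = 0.0402), and without DM-aKG replicate 3 or WT replicate 1.

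The type V chains, minor components that help to start fibrils, were at lower levels. Col5a2 had 1.98, 3.53 and 5.18 RPKM in DM-aKG libraries, 5.64, 11.02 and 15.2 RPKM in control libraries, and 1.99, 3.31 and 3.78 RPKM in WT libraries. All DM-aKG libraries lay below all control libraries, and the log2 change was -1.34 (SE 0.19, adjusted p = 2.24e-05). Col5a1 averaged 3.61 ± 0.567 RPKM in DM-aKG (SD, n = 6) and 7.07 ± 1.55 RPKM in control libraries (SD, n = 7), with a log2 change of -0.79 (adjusted p = 0.000244). Col5a3, which passed the filter only through the control libraries, averaged 0.881 ± 0.214 and 1.91 ± 0.646 RPKM in the same order of groups, with a log2 change of -0.61 (adjusted p = 0.00414). For both of these chains the ranges of the 2 groups overlapped, and neither passed in replicates 1 to 4 alone (adjusted p = 0.0508 for Col5a1 and 0.142 for Col5a3).

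**Figure D2:**
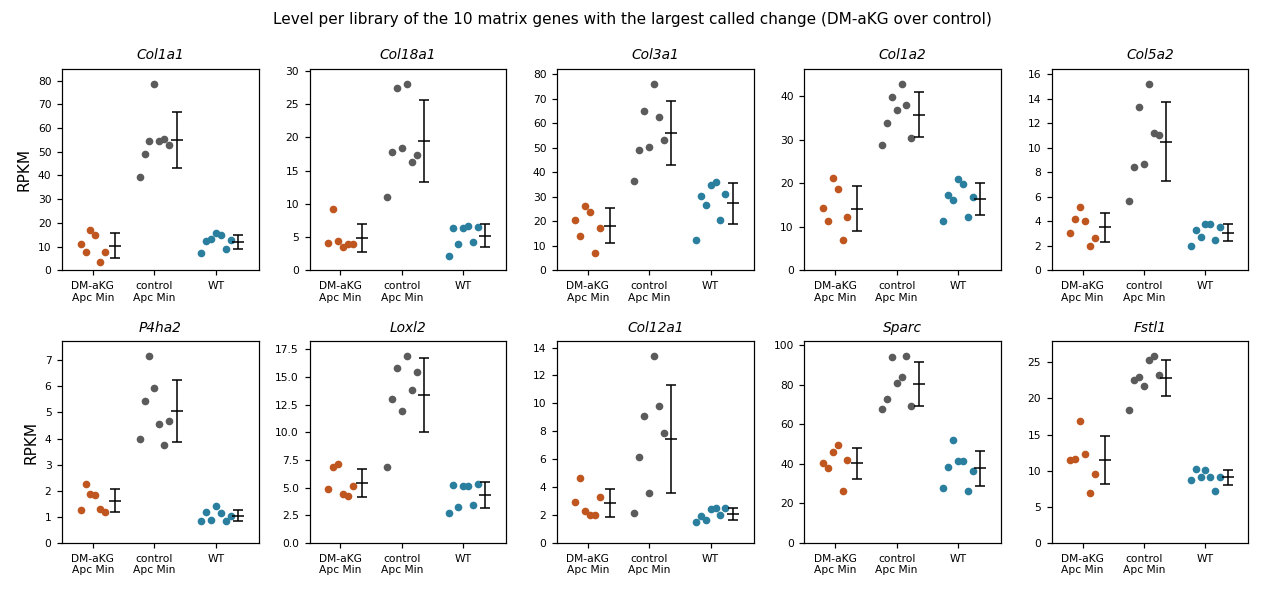
RPKM per library of the 10 genes with the largest called change in DM-aKG over control, with DM-aKG Apc Min, control Apc Min and WT libraries from left to right; points are libraries in the order of their replicate numbers, and bars give the mean and SD. For Col1a1 the 6 DM-aKG libraries lie between 3.56 and 17.2 RPKM and the 7 control libraries between 39.4 and 78.8 RPKM.

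Summed over the 6 fibrillar chains, the level was 23.1, 48.8 and 75.5 RPKM (lowest, median, highest) in DM-aKG libraries, 115.6, 178.8 and 199.1 RPKM in control libraries, and 35.2, 66.6 and 79.7 RPKM in WT libraries. The DM-aKG and control ranges were apart, and the DM-aKG and WT ranges overlapped. Summed over all 18 collagen chains, the mean was 156.3 ± 27.8 RPKM in DM-aKG (SD, n = 6), 348.3 ± 57.9 RPKM in control (SD, n = 7) and 152.4 ± 36.1 RPKM in WT libraries (SD, n = 7).

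Among the basement membrane and network chains, Col18a1, which carries the endostatin fragment at its end and lies in epithelial and vascular basement membranes, moved most. It had 3.54, 3.99 and 9.20 RPKM in DM-aKG libraries, 11.002, 17.8 and 28.1 RPKM in control libraries, and 2.17, 6.35 and 6.69 RPKM in WT libraries. The groups of DM-aKG and control libraries did not overlap, and the highest DM-aKG value, in replicate 2, stood apart from the 3.54 to 4.45 RPKM of the other 5. Col18a1 fell by 1.81 (SE 0.23, adjusted p = 6.85e-06) in DM-aKG against control, and the control libraries were higher than WT by 1.73 (adjusted p = 2.54e-06).

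Col4a1 and Col4a2, the chains of the type IV network found in all basement membranes, are transcribed away from each other on chromosome 8 (mm10): the first base of Col4a1 on the reverse strand is 11312826 and that of Col4a2 on the forward strand is 11312805. Their RefSeq windows of 250 bases before to 50 bases after the start (GRCm38.p6) share 78 bases, chr8:11312777-11312854. The Col4a2 window, chr8:11312555-11312854 on the forward strand, is shown because both genes fell, with the stretch that also lies in the Col4a1 window in capitals.
Col4a2: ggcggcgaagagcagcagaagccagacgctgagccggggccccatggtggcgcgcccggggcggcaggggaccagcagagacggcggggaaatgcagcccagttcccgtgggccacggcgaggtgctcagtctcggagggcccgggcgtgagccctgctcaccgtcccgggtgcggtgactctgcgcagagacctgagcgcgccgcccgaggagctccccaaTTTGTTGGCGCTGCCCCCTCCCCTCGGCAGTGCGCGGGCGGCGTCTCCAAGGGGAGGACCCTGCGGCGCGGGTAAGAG
Their annotated exons share 22 bases on opposite strands, 0.295% of the Col4a1 exon bases and 0.332% of those of Col4a2, and the strand setting of the counting is not given in the sources used here.

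Col4a1 had 18.5, 21.7 and 35.3 RPKM in DM-aKG libraries, 25.9, 47.7 and 62.8 RPKM in control libraries, and 12.6, 19.7 and 21.5 RPKM in WT libraries. Col4a2 had 16.1, 18.5 and 25.8 RPKM in DM-aKG libraries, 21.1, 33.8 and 42.0 RPKM in control libraries, and 10.7, 14.7 and 16.4 RPKM in WT libraries. For both genes the DM-aKG and control ranges overlapped, and the control libraries all lay above the WT libraries. The log2 change of DM-aKG over control was -0.95 for Col4a1 (SE 0.18, adjusted p = 0.000514) and -0.73 for Col4a2 (SE 0.15, adjusted p = 0.00078). Neither passed in replicates 1 to 4 alone (adjusted p = 0.0745 and 0.102), where the changes were -0.65 and -0.45. In replicates 5 to 7 they were -1.41 and -1.16.

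Col15a1, a basement membrane zone collagen related to Col18a1, was not called in any of the 3 comparisons, with 2.37 ± 0.923 RPKM in DM-aKG, 3.53 ± 1.083 RPKM in control and 2.95 ± 0.882 RPKM in WT libraries (SD, n = 6, 7 and 7). Its change of -0.44 in DM-aKG over control (adjusted p = 0.0804) passed without control replicate 3 or without DM-aKG replicate 6. Col7a1, the chain of the fibrils that anchor epithelial basement membranes, was below the filter. It had 0.126, 0.142 and 0.209 RPKM (lowest, median and highest) in DM-aKG libraries, 0.399, 0.739 and 1.12 RPKM in control libraries, and 0.0956, 0.111 and 0.182 RPKM in WT libraries. By the depth estimate these are about 39.2 reads in the median DM-aKG, 212.9 in the median control and 31.5 in the median WT library. Without a filter on low values Col7a1 fell by 0.55 in DM-aKG against control (adjusted p = 1.61e-05). Col8a1, a short network chain of vessel walls, lay between 0.278 and 1.31 RPKM over the Apc Min libraries and between 0.372 and 0.582 RPKM in WT libraries, and was not called without the filter either (adjusted p = 0.988 for DM-aKG over control).

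The type VI chains build beaded filaments around cells. Col6a2 averaged 13.1 ± 2.53 RPKM in DM-aKG and 21.2 ± 1.56 RPKM in control libraries (SD, n = 6 and 7), without overlap, and fell by 0.68 (adjusted p = 0.00687). Col6a3 averaged 3.44 ± 1.24 and 6.34 ± 1.12 RPKM in DM-aKG and control libraries and fell by 0.76 (adjusted p = 0.00274). Col6a1 averaged 30.9 ± 3.65 and 37.1 ± 3.003 RPKM in these groups, with a log2 change of -0.26 (adjusted p = 0.222). The falls of Col6a2 and Col6a3 did not pass in replicates 1 to 4 alone (adjusted p = 0.102 and 0.0652), nor did that of Col6a2 with the smooth muscle covariate (adjusted p = 0.123).

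Of the collagens that sit on the surface of fibrils, Col12a1, which is laid down in dense or strained connective tissue, had 1.99, 2.63 and 4.65 RPKM in DM-aKG libraries, 2.12, 7.90 and 13.4 RPKM in control libraries, and 1.48, 2.01 and 2.49 RPKM in WT libraries. The control libraries spread over the widest range here, and replicates 1 and 4, at 2.12 and 3.60 RPKM, lay within the DM-aKG range. Col12a1 fell by 1.01 in DM-aKG against control (SE 0.26, adjusted p = 0.00554). The call was lost in replicates 1 to 4 alone (-0.56, adjusted p = 0.248) and with the mean of the smooth muscle markers as a covariate (-0.67, adjusted p = 0.162). Col16a1 fell by 0.31 (adjusted p = 0.0298), with 1.58 ± 0.355 RPKM in DM-aKG and 2.22 ± 0.519 RPKM in control libraries. Leaving out any of control replicates 3, 5 or 6 or DM-aKG replicates 2 or 5 ended that call, with adjusted p up to 0.0695, as did both rescalings. Col14a1 had 2.73 ± 1.27 RPKM in DM-aKG and 2.87 ± 1.06 RPKM in control libraries and was not called in any comparison.

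Of the 9 glycoproteins and proteoglycans, 2 fell in DM-aKG against control libraries, where 27.6% of all genes did. The 2 were Sparc and Fstl1, which encode related secreted proteins. Sparc, a collagen-binding protein that affects how collagen is deposited, had 26.3, 41.1 and 49.5 RPKM in DM-aKG libraries, 67.9, 80.7 and 94.3 RPKM in control libraries, and 26.3, 38.6 and 51.8 RPKM in WT libraries. Every control library exceeded every library of the other 2 groups, and the log2 change of DM-aKG over control was -0.996 (SE 0.15, adjusted p = 5.07e-05). Fstl1, a secreted glycoprotein of mesenchymal cells, had 6.94, 11.6 and 16.8 RPKM in DM-aKG libraries, 18.4, 22.9 and 25.8 RPKM in control libraries, and 7.20, 9.13 and 10.3 RPKM in WT libraries. It fell by 0.97 (SE 0.13, adjusted p = 1.5e-05), also with no overlap.

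The other 7 were not called in DM-aKG against control libraries, with log2 changes from -0.47 for Tnc to 0.27 for Postn. Dcn, the small collagen-binding proteoglycan decorin, had 46.2, 85.9 and 108.0 RPKM in DM-aKG libraries, 69.5, 96.8 and 127.8 RPKM in control libraries, and 32.6, 47.2 and 58.4 RPKM in WT libraries. It was higher than WT in both Apc Min groups, by 0.78 in DM-aKG (SE 0.21, adjusted p = 0.00607) and by 1.13 in control libraries (adjusted p = 6.82e-05). In replicates 5 to 7 alone the rise of Dcn in DM-aKG did not pass (adjusted p = 0.137). Lum, the related proteoglycan lumican, had 9.23 ± 3.92, 7.69 ± 3.63 and 8.26 ± 1.54 RPKM in DM-aKG, control and WT libraries and was not called in any comparison.

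Postn, the matricellular protein periostin, was the gene of the set that fell in control Apc Min against WT libraries. It had 5.93, 10.4 and 18.6 RPKM in DM-aKG libraries, 5.85, 8.32 and 17.2 RPKM in control libraries, and 12.9, 14.8 and 17.0 RPKM in WT libraries. The control value of 17.2 RPKM, in replicate 6, lay above the WT range, while the other 6 control libraries lay below it. The change of control over WT was -0.68 (SE 0.20, adjusted p = 0.00716), and it was -0.09 (adjusted p = 0.813) with the smooth muscle covariate and -0.29 (adjusted p = 0.372) in replicates 5 to 7 alone. Fn1, the adhesive glycoprotein fibronectin, averaged 27.1 ± 10.04 RPKM in DM-aKG, 33.4 ± 11.6 RPKM in control and 19.6 ± 2.64 RPKM in WT libraries, and rose by 0.68 in control over WT (adjusted p = 0.0107). That call was lost in replicates 1 to 4 alone (0.23, adjusted p = 0.312) and under median-of-ratios scaling (adjusted p = 0.0877).

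Tnc and Bgn, tenascin C and biglycan, also rose in control over WT, by 0.53 (adjusted p = 0.0287) and 0.43 (adjusted p = 0.0336). Both calls were lost under both rescalings. Each was also lost on leaving out single libraries, 5 of 20 for Tnc and 7 of 20 for Bgn, with adjusted p up to 0.0702 and 0.080. In DM-aKG over control, the change of Tnc passed without control replicate 1 or DM-aKG replicate 2, and that of Bgn without control replicate 1 or WT replicate 1. Fbn1, the microfibril protein fibrillin, averaged 3.16 ± 0.227, 3.48 ± 1.30 and 2.49 ± 0.684 RPKM in DM-aKG, control and WT libraries and was not called, though its change in control over WT passed without control replicate 1 or 4.

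The lysyl oxidases start the cross-links between collagen or elastin chains. In DM-aKG against control 1 of the 3 fell, where 27.6% of all genes did. In control against WT 3 of 3 rose, where 43.2% of all genes did. Loxl2 had 4.29, 5.005 and 7.13 RPKM in DM-aKG libraries, 6.84, 13.9 and 16.9 RPKM in control libraries, and 2.698, 5.12 and 5.37 RPKM in WT libraries. Control replicate 1, at 6.84 RPKM, lay inside the DM-aKG range and the other 6 control libraries lay above it. Loxl2 fell by 1.14 in DM-aKG against control libraries (SE 0.18, adjusted p = 7.21e-05).

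Lox itself had 1.03, 2.10 and 4.90 RPKM in DM-aKG libraries, 1.70, 3.86 and 11.2 RPKM in control libraries, and 0.0816, 0.371 and 0.725 RPKM in WT libraries. It was the gene of the set whose DM-aKG libraries all lay above the WT libraries. It rose by 1.21 in DM-aKG Apc Min over WT (SE 0.30, adjusted p = 0.00405) and by 1.86 in control Apc Min over WT (SE 0.29, adjusted p = 2.01e-05), and the DM-aKG rise did not pass in replicates 5 to 7 alone (1.16, adjusted p = 0.139). The change of DM-aKG over control was -0.65 (SE 0.30, adjusted p = 0.103), and it passed without control replicate 1 or without DM-aKG replicate 2, with adjusted p down to 0.0363. Loxl1, which acts mainly on elastic fibres, had 2.20 ± 0.635, 2.35 ± 0.720 and 1.60 ± 0.339 RPKM in DM-aKG, control and WT libraries. Its rise of 0.34 in control over WT (adjusted p = 0.0402) was lost under both rescalings, and on leaving out 9 of the 20 libraries in turn, with adjusted p up to 0.094.

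The prolyl 4-hydroxylase of collagen pairs a catalytic alpha subunit, P4ha1, P4ha2 or P4ha3, with the beta subunit P4hb, which is the protein disulfide isomerase of the endoplasmic reticulum and is used by many other proteins. P4ha1 and P4ha2 are known as genes induced under low oxygen, and the hypoxia-inducible factors bind DNA at ACGTG or GCGTG. The RefSeq start windows of P4ha2, P4ha1 and P4hb (GRCm38.p6, from 250 bases before to 50 bases after the start) are shown because the levels of these 3 subunits are set against each other below, with each ACGTG or GCGTG, read on either strand, in capitals.
P4ha2: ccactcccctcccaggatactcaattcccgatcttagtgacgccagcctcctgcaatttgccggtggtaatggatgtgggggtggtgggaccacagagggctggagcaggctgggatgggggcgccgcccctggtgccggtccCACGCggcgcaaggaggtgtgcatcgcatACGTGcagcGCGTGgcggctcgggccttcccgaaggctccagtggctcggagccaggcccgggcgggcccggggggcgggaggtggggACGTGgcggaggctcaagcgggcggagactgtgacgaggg
P4ha1: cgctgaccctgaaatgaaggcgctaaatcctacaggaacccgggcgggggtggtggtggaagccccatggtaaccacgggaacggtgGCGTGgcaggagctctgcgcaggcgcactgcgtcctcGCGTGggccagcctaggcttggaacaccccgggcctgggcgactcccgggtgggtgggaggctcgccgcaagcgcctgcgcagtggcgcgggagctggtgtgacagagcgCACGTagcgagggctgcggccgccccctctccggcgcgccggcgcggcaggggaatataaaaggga
P4hb: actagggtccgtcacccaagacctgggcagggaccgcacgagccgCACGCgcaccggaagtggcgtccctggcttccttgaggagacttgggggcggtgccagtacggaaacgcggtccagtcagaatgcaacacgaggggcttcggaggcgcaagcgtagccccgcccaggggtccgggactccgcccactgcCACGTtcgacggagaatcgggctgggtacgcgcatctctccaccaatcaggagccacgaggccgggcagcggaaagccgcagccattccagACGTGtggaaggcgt
These are chr11:54100674-54100973 on the forward strand, chr10:59323046-59323345 on the forward strand and chr11:120573204-120573503 on the reverse strand. All 3 windows hold matches. Windows were found for 27 of the 38 genes, and 15 of the 27 hold ACGTG or GCGTG, among them 6 of the 7 hydroxylase and chaperone genes with a window. Of the 32851 windows in the RefSeq table, 43.8% hold ACGTG or GCGTG, 19.6% hold ACGTG and 32.4% hold GCGTG. These shares count windows, while the 27 genes have 31 windows and a gene was counted where any of its windows matched. These short motifs overlap others, such as the E-box CACGTG, and a match is a description of the sequence only.

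P4ha2 had 1.19, 1.56 and 2.26 RPKM (lowest, median and highest) in DM-aKG libraries, 3.74, 4.66 and 7.15 RPKM in control libraries, and 0.829, 1.03 and 1.43 RPKM in WT libraries. The DM-aKG and control libraries did not overlap, and the lowest DM-aKG values lay within the WT range. P4ha2 fell by 1.21 in DM-aKG against control (SE 0.13, adjusted p = 4.44e-07), by 1.23 within replicates 1 to 4 and by 1.24 within replicates 5 to 7. The control libraries were 1.55 higher than WT (adjusted p = 3.06e-09). The DM-aKG libraries were 0.34 higher than WT (adjusted p = 0.0358), a call that was lost on leaving out 7 of the 20 libraries in turn (adjusted p up to 0.0962) under quantile normalization (adjusted p = 0.107), with the smooth muscle covariate (adjusted p = 0.0526) and within either set of replicates (adjusted p = 0.066 and 0.431).

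P4ha1 had 2.46, 4.40 and 5.48 RPKM in DM-aKG libraries, 3.07, 5.55 and 8.60 RPKM in control libraries, and 1.91, 2.53 and 3.28 RPKM in WT libraries. The DM-aKG range lay largely inside the control range. Its change was -0.35 in DM-aKG over control (SE 0.18, adjusted p = 0.15; 0.0432 without control replicate 5), 0.89 in control over WT (adjusted p = 0.000228) and 0.55 in DM-aKG Apc Min over WT (adjusted p = 0.0226). The last of these was lost without DM-aKG replicate 4 (adjusted p = 0.0527) and within either set of replicates (adjusted p = 0.0569 and 0.361). P4ha3 was near the limit of detection, with 0.0615, 0.102 and 0.174 RPKM in DM-aKG libraries, 0.0199, 0.155 and 0.294 RPKM in control libraries, and 0.0324, 0.062 and 0.207 RPKM in WT libraries. It was not called without the filter (adjusted p = 0.419 for DM-aKG over control).

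P4hb was the most abundant gene of the set, with 485.3 ± 77.4 RPKM in DM-aKG, 468.1 ± 78.5 RPKM in control and 482.1 ± 113.7 RPKM in WT libraries (SD, n = 6, 7 and 7). Its log2 change was 0.05 in DM-aKG over control (SE 0.15, adjusted p = 0.812) and -0.03 in control over WT (SE 0.15, adjusted p = 0.888). Under median-of-ratios scaling these changes were 0.25 and -0.28, and neither passed.

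**Figure D3:**
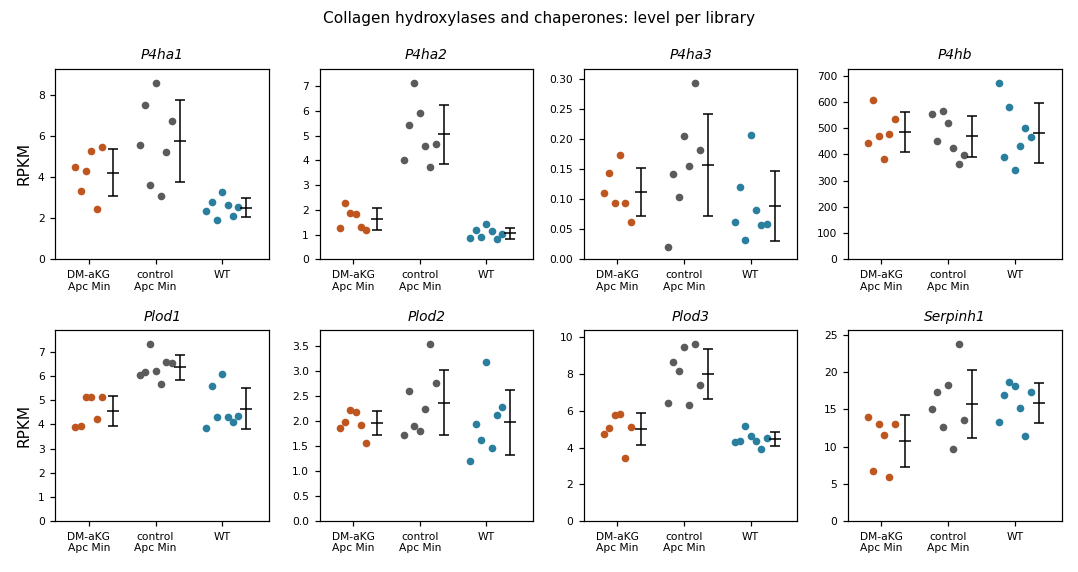
RPKM per library of the prolyl 4-hydroxylase subunits P4ha1, P4ha2, P4ha3 and P4hb, the lysyl hydroxylases Plod1, Plod2 and Plod3, and the collagen chaperone Serpinh1, with DM-aKG Apc Min, control Apc Min and WT libraries from left to right; points are libraries in the order of their replicate numbers, and bars give the mean and SD. P4ha2 reaches at most 2.26 RPKM in DM-aKG libraries and is at least 3.74 RPKM in control libraries, while the 3 groups overlap for P4hb.

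The lysyl hydroxylases prepare the residues used for cross-links and, in the case of Plod3, also for sugar attachment. Plod3 had 3.45, 5.11 and 5.82 RPKM in DM-aKG libraries, 6.30, 8.15 and 9.62 RPKM in control libraries, and 3.93, 4.36 and 5.201 RPKM in WT libraries. Its control libraries lay above all others, and it fell by 0.59 in DM-aKG against control (SE 0.11, adjusted p = 0.000334). Of the Plod3 exon bases, 11.7% overlap Znhit1 on the opposite strand, so that reads of the 2 genes may not be separable there. The same limit holds for other genes of the set. Among them, exons on the opposite strand cover 20.1% of the exon bases of Fbn1, 6.42% of Plod2, 5.57% of Loxl2 and 2.50% of Fn1. Plod1 had 3.89, 4.67 and 5.14 RPKM in DM-aKG libraries, 5.68, 6.21 and 7.30 RPKM in control libraries, and 3.84, 4.30 and 6.09 RPKM in WT libraries. It fell by 0.41 (SE 0.10, adjusted p = 0.00277) without overlap of DM-aKG and control libraries, and this did not pass under quantile normalization (adjusted p = 0.0711) or in replicates 5 to 7 alone (adjusted p = 0.0656). Plod2, the enzyme that hydroxylates collagen ends, had 1.56, 1.94 and 2.22 RPKM in DM-aKG libraries, 1.72, 2.24 and 3.52 RPKM in control libraries, and 1.20, 1.94 and 3.18 RPKM in WT libraries, and was not called in any comparison.

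Serpinh1, the collagen chaperone, averaged 10.7 ± 3.50 RPKM in DM-aKG, 15.7 ± 4.53 RPKM in control and 15.9 ± 2.68 RPKM in WT libraries (SD, n = 6, 7 and 7). It had 5.91 to 13.997 RPKM in DM-aKG, 9.69 to 23.7 RPKM in control and 11.4 to 18.7 RPKM in WT libraries, so that the 3 groups overlapped. The fall of 0.53 in DM-aKG against control (SE 0.20, adjusted p = 0.0439) was lost on leaving out 11 of the 20 libraries in turn, with adjusted p up to 0.127, and under both rescalings. The change of control over WT was -0.04 (adjusted p = 0.875), and DM-aKG Apc Min libraries were 0.57 lower than WT (adjusted p = 0.0282), which was lost without DM-aKG replicate 2, DM-aKG replicate 5 or WT replicate 3 (adjusted p up to 0.0871).

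Ratios of partner genes within a library do not depend on how the library was scaled. The level of a ratio depends on the gene lengths used for RPKM, so only differences between groups are read from it. Type I collagen is usually built with more alpha 1 than alpha 2 chains, and the Col1a1/Col1a2 ratio was 0.515 to 0.811 with a median of 0.728 in DM-aKG libraries, 1.27 to 2.14 with a median of 1.45 in control libraries, and 0.654 to 0.805 with a median of 0.749 in WT libraries. No DM-aKG or WT library reached the lowest control library. The log2 ratio differed by -1.12 between DM-aKG and control and by 1.05 between control and WT, each with an exact permutation p of 0.000583, the smallest these group sizes allow, and an adjusted p of 0.00117 over 12 ratio tests. Between DM-aKG Apc Min and WT it differed by -0.08 (exact permutation p = 0.509, adjusted 0.556).

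The P4ha2/P4ha1 ratio was 0.218 to 0.680 with a median of 0.393 in DM-aKG libraries, 0.689 to 1.99 with a median of 0.721 in control libraries, and 0.368 to 0.469 with a median of 0.420 in WT libraries. Control replicates 3 and 5, at 1.99 and 1.49, stood above the 0.689 to 0.724 of the other 5, and the highest DM-aKG library, replicate 2 at 0.680, came close to the lowest control library. The log2 difference was -1.24 between DM-aKG and control and 1.13 between control and WT (exact permutation p = 0.000583, adjusted 0.00117 each), and -0.11 for DM-aKG Apc Min over WT (adjusted p = 0.642, exact permutation test). Against the beta subunit, the P4ha2/P4hb ratio had a median of 0.00328 in DM-aKG libraries, 0.0114 in control libraries and 0.00222 in WT libraries, with log2 differences of -1.71 between DM-aKG and control and 2.29 between control and WT (both at the same smallest exact permutation p). For DM-aKG Apc Min over WT the difference was 0.57 (adjusted p = 0.104, exact permutation test).

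The Col4a1/Col4a2 ratio moved less, with medians of 1.17, 1.41 and 1.28 in DM-aKG, control and WT libraries. The log2 difference was -0.22 for DM-aKG over control (exact permutation p = 0.00583, adjusted 0.00999), 0.14 for control over WT (exact permutation p = 0.0157, adjusted 0.0236) and -0.08 for DM-aKG Apc Min over WT (adjusted p = 0.209, exact permutation test).

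**Figure D4:**
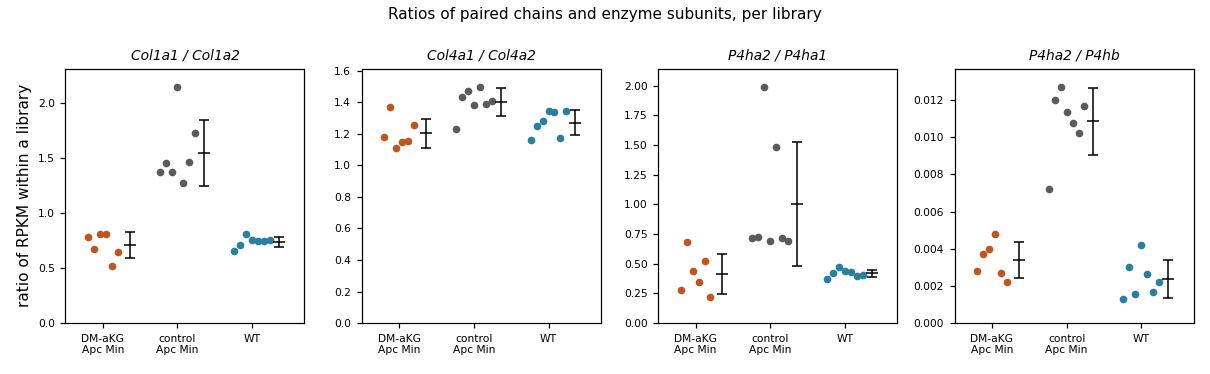
Ratio of RPKM within each library for Col1a1/Col1a2, Col4a1/Col4a2, P4ha2/P4ha1 and P4ha2/P4hb, with DM-aKG Apc Min, control Apc Min and WT libraries from left to right; points are libraries in the order of their replicate numbers, and bars give the mean and SD. For Col1a1/Col1a2 the DM-aKG libraries lie between 0.515 and 0.811, below the control libraries at 1.27 to 2.14.

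Other genes of matrix assembly, from lists chosen with earlier results of these data known, were read in the same fit. Of 20 tested genes that process or fold procollagen beyond the 38, 0 rose and 9 fell in DM-aKG against control libraries (5.91% and 27.6% of all genes). Those with the smallest p were the disulfide isomerase Pdia3 (-0.67, adjusted p = 2.42e-05), the prolyl 3-hydroxylase P3h1 (-0.38, adjusted p = 0.000356), and its complex partners Ppib (-0.56, adjusted p = 0.00092) and Crtap (-0.56, adjusted p = 0.00105). Of 15 tested laminins, nidogens and other basement membrane genes, 7 fell, among them the laminin chain Lama5 (-1.16, adjusted p = 9.54e-05) and the linker Nid1 (-0.81, adjusted p = 0.000537), while Sparcl1, a relative of Sparc, rose (0.65, adjusted p = 0.000491).

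Of 19 tested genes of elastic fibres and matricellular proteins, 3 rose and 5 fell. The leading ones were Spp1 (osteopontin, -1.76, adjusted p = 3.13e-07), the lysyl oxidase Loxl4 (-0.68, adjusted p = 1.94e-05), Ltbp3, which binds latent TGF-beta (-0.65, adjusted p = 8.4e-05), and the thrombospondin Thbs1 (-1.60, adjusted p = 0.000491). Of 16 tested TGF-beta ligands, targets and matrix receptors, 1 rose and 6 fell, among them the ligand Tgfb1 (-0.81, adjusted p = 3.2e-06), the collagen receptor Ddr1 (-0.66, adjusted p = 2.67e-05) and the integrin Itgb3 (-0.39, adjusted p = 0.0124). Of 15 hypoxia-inducible genes, 0 rose and 11 fell in DM-aKG against control, and 14 rose in control over WT. Examples of the falls are Car9, a carbonic anhydrase (-1.44, adjusted p = 3.24e-07), the glucose transporter Slc2a1 (-2.07, adjusted p = 3.26e-05), the endoplasmic reticulum oxidase Ero1l (-0.87, adjusted p = 2.52e-06), and Egln3, itself an oxygen and alpha-ketoglutarate dependent prolyl hydroxylase (-0.92, adjusted p = 0.00066). Of all genes tested, 5.91% rose and 27.6% fell in DM-aKG against control, and 43.2% rose in control over WT.

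Markers of the cells that could carry matrix transcripts moved in part with the groups. All 13 smooth muscle markers rose in DM-aKG against control libraries (5.91% of all genes) and fell in control against WT libraries (15.7% of all genes). In DM-aKG Apc Min against WT 0 of the 13 were called, where 21.9% of all genes rose and 17.3% fell. The 13 markers summed to 1064.9 to 1828.6 RPKM in DM-aKG, 460.3 to 1553.6 RPKM in control and 1190.1 to 2035.9 RPKM in WT libraries. The smooth muscle myosin Myh11 changed by 1.13 (adjusted p = 0.000867) and the actin Acta2 by 0.83 (adjusted p = 0.00299) in DM-aKG over control. With the mean of these markers as a covariate, 17 of the 35 matrix genes fell in DM-aKG against control libraries, where 19% of all genes did. Of 13 tested fibroblast markers, 3 fell and 1 rose in DM-aKG against control, where 27.6% of all genes fell and 5.91% rose. The falls were those of the growth factor receptors Pdgfra (-0.60, adjusted p = 0.00851) and Pdgfrb (-0.50, adjusted p = 0.0428) and the glycoprotein Pdpn (-0.44, adjusted p = 0.0465). The matrix protein Dpt rose (0.47, adjusted p = 0.0301). Summed over the 15 fibroblast markers listed, the level was 185.3 to 293.2 RPKM in DM-aKG, 203.7 to 338.2 RPKM in control and 149.0 to 227.7 RPKM in WT libraries, so that the DM-aKG and control ranges overlapped.

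The 12 endothelial markers summed to 71.1 to 105.8 RPKM in DM-aKG, 77.6 to 99.3 RPKM in control and 29.3 to 72.0 RPKM in WT libraries, and 1 of them, Cdh5, fell in DM-aKG against control (-0.57, adjusted p = 0.00527). Of 6 tested markers of pericytes and enteric glia 2 rose, Rgs5 (0.67, adjusted p = 0.000843) and Cspg4 (0.45, adjusted p = 0.00606), with sums over the 10 markers listed of 93.8 to 124.6 RPKM in DM-aKG, 54.2 to 94.4 RPKM in control and 86.5 to 131.0 RPKM in WT libraries. Of 8 tested leukocyte markers 0 were called in DM-aKG against control and 8 fell in control against WT, with sums over the 10 listed of 79.7 to 240.1 RPKM in DM-aKG, 57.3 to 145.4 RPKM in control and 278.1 to 779.7 RPKM in WT libraries. The 10 epithelial markers summed to 3120.5 to 4461.4 RPKM in DM-aKG, 4315.7 to 6459.4 RPKM in control and 5678.1 to 7826.7 RPKM in WT libraries. Of these, 1 rose and 6 fell in DM-aKG against control, with Cldn4 (-2.16, adjusted p = 5.55e-06) and Krt18 (-1.55, adjusted p = 1.04e-05) leading. Over all genes tested, 5.91% rose and 27.6% fell in DM-aKG against control, and 15.7% fell in control against WT. No marker of these lists was at 0 in every library of a group. The part of these cell types in the changes of the matrix genes was not tested. All 13 smooth muscle markers were called in DM-aKG against control and in control against WT. The covariate fit therefore cannot separate these markers from the group in those comparisons.

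**Figure D5:**
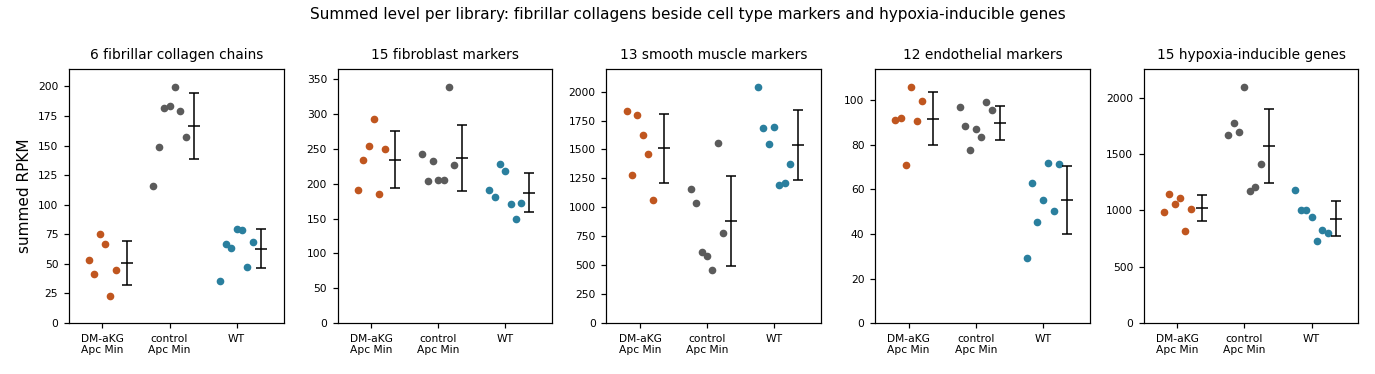
Summed RPKM per library of the 6 fibrillar collagen chains, 15 fibroblast, 13 smooth muscle and 12 endothelial markers and 15 hypoxia-inducible genes, with DM-aKG Apc Min, control Apc Min and WT libraries from left to right; points are libraries in the order of their replicate numbers, and bars give the mean and SD. The fibrillar sum is at most 75.5 RPKM in DM-aKG and at least 115.6 RPKM in control libraries, while the fibroblast sums of these 2 groups overlap and the smooth muscle sum of DM-aKG libraries is the higher in mean (1509.0 RPKM in DM-aKG against 882.8 RPKM in control libraries).

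Against WT libraries, the DM-aKG Apc Min libraries differed in 7 of the 35 genes, of which 5 rose and 2 fell. Of all genes tested, 21.9% rose and 17.3% fell in this comparison, so calls were not more frequent in the set than over all genes. Those that rose were Lox, Dcn, P4ha1, Col4a2 and P4ha2. Those that fell were Serpinh1 and Col6a3, Col6a3 with 3.44 ± 1.24 RPKM in DM-aKG and 5.04 ± 1.32 RPKM in WT libraries (log2 change -0.46, adjusted p = 0.0448). Col4a2 was 0.41 higher than WT (adjusted p = 0.031), which did not pass within either set of replicates, and leaving out 4 of the 20 libraries in turn ended its call (adjusted p up to 0.0853), as 9 of 20 did for Col6a3 (adjusted p up to 0.131). The fibrillar chains were not called against WT, with log2 changes from -0.60 for Col3a1 to 0.18 for Col5a1 and standard errors of 0.14 to 0.26, which does not show that the 2 groups are alike. Besides Col3a1, changes of DM-aKG Apc Min against WT that passed on leaving out a library were those of Col6a1 (without WT replicate 4, 5 or 7), Fstl1 (without DM-aKG replicate 5) and Postn (without DM-aKG replicate 3).

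Single libraries stood at the ends of the ranges for many of the 38 genes. DM-aKG replicate 5 was the lowest DM-aKG library for 22 genes, and replicates 3 and 2 were the highest for 14 and 10. Control replicate 1 was the lowest control library for 21 genes, and replicates 6 and 5 were the highest for 17 and 13. Among WT libraries, replicate 1 was the lowest for 22 genes and replicate 4 the highest for 17. Leaving out each library in turn left 18 to 22 genes lower in DM-aKG against control and 23 to 27 higher in control against WT, where 23.1 to 29.9% of all genes were lower and 40.1 to 44.2% higher. Some calls not yet named as such also changed within a set of replicates. In DM-aKG over control, Serpinh1 did not pass in either set (adjusted p = 0.120 in replicates 1 to 4 and 0.254 in replicates 5 to 7) and Col16a1 did not in replicates 1 to 4 (adjusted p = 0.431), while Tnc, Loxl1 and Dcn fell in replicates 5 to 7 (adjusted p = 0.0156, 0.0187 and 0.0281). In control over WT, Bgn did not pass in either set (adjusted p = 0.0532 and 0.242), Tnc, Loxl1 and Plod1 did not in replicates 1 to 4 (adjusted p = 0.226, 0.711 and 0.0663), and P4ha1, Col6a1 and Col6a2 did not in replicates 5 to 7 (adjusted p = 0.0679, 0.111 and 0.115), where Fbn1 rose (adjusted p = 0.0174). In DM-aKG Apc Min over WT, Col6a3 did not pass in either set (adjusted p = 0.239 and 0.203) and Serpinh1 did not in replicates 5 to 7 (adjusted p = 0.318), while Col6a1 and Fstl1 rose in replicates 1 to 4 (adjusted p = 0.0399 and 0.0284).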

How the data were processed

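RNA of 20 mouse libraries was purified with a Qiagen kit and sequenced from Illumina TruSeq libraries, per the labels' protocols. Groups and replicate numbers came from the sample labels. The authors deposited a table of 24795 genes that was read here as RPKM, a unit taken from the values themselves (fractional, with sums of 277634 to 369409 per library). The submitters' processing notes name mm10, Partek, HISAT2 2.0.4 and CASAVA 1.8. On their roles, the annotation and the strand setting, nothing is given in the sources used here. RPKM divides by the library total, so large changes of abundant genes shift the others.

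The 12433 genes that reached 1 RPKM in 6 or more libraries were fitted as log2(RPKM + 1), pseudocount 1, with limma 3.58.1 in R 4.3.3 over all 20 libraries and 3 groups (trended and robust empirical Bayes, using statmod 1.5.0), with Benjamini-Hochberg adjustment over all genes and a threshold of 0.05, 2-sided. The step was tested on simulated data. Ratios were compared with 2-sided exact permutation tests, adjusted over 12 tests. All 38 genes are named or counted. Values by library are given as lowest, median and highest for the 10 called genes with the largest change and for the hydroxylases, and up to 4 genes of each other list were named by the smallest p, except that some genes are not reported here. The genes and lists, and the split into replicates 1 to 4 and 5 to 7, were chosen with earlier results of these data known.

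Depth, 21.2 to 29.25 M reads per library, was estimated from the steps between low values. Of 756 to 905 such values per library, 66.4 to 71.71% fell within 0.1 read of a whole number, where evenly spread values would give 20%, so counts were not recovered and no count test was run. No pair of libraries held identical values. Positions are from GENCODE M21 (mm10) and start windows from RefSeq (GRCm38.p6), matched by symbol for 27 of the 38 genes. Alternatives varied the pseudocount, filter, scaling, libraries and covariates. Figures were drawn with Python 3.11.15 and matplotlib 3.10.9, and tables read with pandas 2.3.3 and numpy 2.4.6.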

Additional observations from a re-analysis of the deposited data

Results flagged for a closer look

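A library stood far from the others of its group in 4 of the 114 gene and group sets examined. The cut-off used is set to flag about 1 in 20 by chance, a nominal rate that was not measured here. In DM-aKG replicate 2, Col4a1 was at 35.3 RPKM, while the remaining 5 libraries under DM-aKG held 18.5 to 23.1 RPKM. That library also had 9.20 RPKM of Col18a1, while the remaining 5 held 3.54 to 4.45 RPKM. Loxl2 stood at 6.84 RPKM in control replicate 1, and the remaining 6 control libraries held 11.95 to 16.9 RPKM. Col5a3 stood at 1.64 RPKM in WT replicate 3, and the remaining 6 WT libraries held 0.396 to 0.801 RPKM. The calls of these 4 genes in DM-aKG over control and in control over WT held when each of the 20 libraries was left out in turn.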

How the results depend on the processing

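No called direction was turned by any alternative. Of 3330 results for single genes under alternatives, 3171 kept their side of the threshold, 131 lost a call and 28 gained one. In DM-aKG against control, 11 genes fell in replicates 1 to 4 only (14.6% of all genes) and 21 in replicates 5 to 7 only (22.4%), a set with 2 DM-aKG libraries. Over all genes, quantile normalization gave 1750 higher and 1849 lower calls. The gene that fell in control against WT was lost (0 genes) with the smooth muscle covariate and in replicates 5 to 7 only. In DM-aKG Apc Min against WT, the 5 genes that rose became 3 at a filter of 5 RPKM, 0 in replicates 5 to 7 only, and 3 to 6 on leaving out each library. The 2 that fell became 1 without a filter, without ribosomal RNA and haemoglobin genes in the scaling, with only the 2 groups fitted, with the smooth muscle covariate, with the replicate block and in replicates 1 to 4 only, became 0 in replicates 5 to 7 only, and ranged from 0 (without DM-aKG replicate 2 or 5) to 4 (without DM-aKG replicate 3) on leaving out each library. In the main fit of DM-aKG Apc Min against WT, 21.9% of all genes rose and 17.3% fell. The shares of all genes under these alternatives are not reported here, so the changes in count are not read as particular to the set. The cause was not tested.

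In replicates 1 to 4 only, ratio differences for DM-aKG over control and control over WT were -1.02 and 1.09 for Col1a1/Col1a2, -1.16 and 1.12 for P4ha2/P4ha1 and -1.49 and 2.24 for P4ha2/P4hb (exact permutation, adjusted p = 0.0571 each, with 4 libraries a group), and -0.20 and 0.13 for Col4a1/Col4a2 (adjusted p = 0.098 and 0.214, exact permutation). On leaving out each library, the differences for DM-aKG Apc Min over WT ranged from -0.12 to -0.058 for Col4a1/Col4a2 and from 0.44 to 0.73 for P4ha2/P4hb, and passed without DM-aKG replicate 2 for Col4a1/Col4a2 and without WT replicate 4 for P4ha2/P4hb.

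Deviations from group means correlated at a mean r of 0.08 between same-numbered libraries of different groups (19 pairs, -0.46 to 0.60). Between other libraries of different groups the mean was -0.01 (114 pairs, -0.54 to 0.60), so the numbers were not taken as pairs. Means near 0 do not show that single libraries of different groups are unrelated, and the main fit holds no term for such likeness. With the replicate block, 20 genes fell in DM-aKG against control (29% of all genes) and 25 rose in control against WT (45.6%), and P4ha2/P4hb in DM-aKG Apc Min over WT was 0.58 (adjusted p = 0.0417, exact sign-flip permutation).

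Depth limits P4ha3, with an estimated 1.3 to 26.3 reads per control library.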
